A study of Mus musculus with 96 samples.

Results

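The regions described here are WDR5 ChIP-seq peaks that were called in Rybp-/- mouse embryonic stem cells (ESCs) and share no base pair with any peak called in Rybp+/+ ESCs. Of the 12946 WDR5 peaks of Rybp-/- ESCs, 2290 met this rule, while 10656 overlapped at least 1 of the 11965 Rybp+/+ peaks. In the opposite direction, 1354 Rybp+/+ peaks had no Rybp-/- counterpart. Both peak lists come from the Rybp-floxed ESC line R7.15, for which other labels of the series give a Rosa26::CreERT2 allele. Rybp-/- cells had received 5 µM 4-hydroxytamoxifen (4-OHT) for 4 days and Rybp+/+ cells were the floxed control without 4-OHT, so the loss of Rybp and the treatment cannot be told apart. All cells grew in serum with LIF. The reads of the 2 ChIP replicates of a genotype were merged before peak calling, so a peak list has no replicate error, and the intervals given for shares of peaks cover counting error only. H3K4me3 and H3K27ac were profiled in the same cells and RNA-seq in 2 replicates per genotype. RING1B lists are used from other cells, labelled R1, with a DOX-induced Rybp_Stat3 integration (Tet.Rybp.Stat3, without and with DOX) and from R1 cells with an empty short hairpin vector (shEV). RNA-seq of R1 ESCs with a knockdown of Rybp (shRybp) or Wdr5 (shWdr5), each against shEV with 2 replicates, was read at the same genes.

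WDR5 is a WD40-repeat protein that holds together the COMPASS family of histone methyltransferases, which place H3K4me3 at active and poised promoters. RYBP is a subunit of the variant form of Polycomb repressive complex 1 (PRC1), in which RING1B places ubiquitin on histone H2A. In ESCs many developmental promoters carry H3K4me3 together with Polycomb marks and little H3K27ac, a state called bivalent, whereas H3K27ac accompanies active promoters and enhancers.

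The DNA of some of these regions is shown first, since their base composition divides them. Each sequence is the 200 bases around the WDR5 summit, on the + strand of mm9, with matches to the searched letters in capitals. The first 5 come from the 10 peaks with the highest WDR5 fold enrichment and are named by the nearest gene. Distances to genes were taken without direction, so the label at Dtnb does not establish that the site lies upstream of it. Capitals mark the GC box GGGCGG, the CCAAT box, the ETS letters CCGGAAG, the E-box CACGTG, the YY1 letters AAGATGGC, the E2F letters GGCGGGAA and the RFX-type letters GTTGCNA, on either strand. The E2F and GC box letters overlap in the window nearest to Nrn1.

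Upstream of Dtnb, chr12:3791886-3792085: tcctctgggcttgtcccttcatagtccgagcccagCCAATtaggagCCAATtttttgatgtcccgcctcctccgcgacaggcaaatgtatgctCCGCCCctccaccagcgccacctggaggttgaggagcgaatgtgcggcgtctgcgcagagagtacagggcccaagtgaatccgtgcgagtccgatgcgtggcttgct

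Nearest coding gene Nrn1, chr13:36670423-36670622: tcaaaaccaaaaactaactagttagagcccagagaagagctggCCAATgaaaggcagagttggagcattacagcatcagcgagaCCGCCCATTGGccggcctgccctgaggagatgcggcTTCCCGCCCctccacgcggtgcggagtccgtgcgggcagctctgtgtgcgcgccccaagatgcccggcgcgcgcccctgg

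Nearest coding gene Bmp7, chr2:172715357-172715556: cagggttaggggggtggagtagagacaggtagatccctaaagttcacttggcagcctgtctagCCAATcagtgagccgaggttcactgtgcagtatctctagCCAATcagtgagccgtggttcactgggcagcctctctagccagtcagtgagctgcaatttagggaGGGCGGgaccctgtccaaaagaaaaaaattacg

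Mtx3, chr13:93614653-93614852: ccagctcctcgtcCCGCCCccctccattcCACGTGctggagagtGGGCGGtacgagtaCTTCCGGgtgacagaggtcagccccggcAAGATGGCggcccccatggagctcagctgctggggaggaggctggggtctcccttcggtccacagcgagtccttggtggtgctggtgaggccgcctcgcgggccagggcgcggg

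1700001J04Rik, chr11:114046838-114047037: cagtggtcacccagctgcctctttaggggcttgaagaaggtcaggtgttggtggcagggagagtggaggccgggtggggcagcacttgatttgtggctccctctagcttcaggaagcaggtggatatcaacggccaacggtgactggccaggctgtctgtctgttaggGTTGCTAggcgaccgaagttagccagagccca

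The windows at Dtnb, Nrn1 and Bmp7 each hold 2 CCAAT boxes. At Mtx3, a mitochondrial import gene, the summit lies in coding sequence and a transcription start site lies inside the peak. The window there holds GC boxes on both strands, an E-box, an ETS match and a YY1 match in 70.5% G+C. At 1700001J04Rik the peak overlapped none of H3K4me3, H3K27ac and RING1B, and its window holds 1 RFX-type match. A pair of further windows was chosen after their letters had been read. The Tmem108 window is a repeat of 4 RFX-type matches in a peak with no mark, and the Tex101 window, at a testis-expressed surface protein gene, holds 4 CCAAT boxes and 1 RFX-type match.

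Nearest coding gene Tmem108, chr9:103497603-103497802: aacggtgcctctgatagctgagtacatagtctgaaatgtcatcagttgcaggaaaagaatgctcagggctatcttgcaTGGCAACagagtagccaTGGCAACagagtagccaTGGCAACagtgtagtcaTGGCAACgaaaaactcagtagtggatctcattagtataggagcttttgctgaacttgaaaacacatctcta

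Tex101, chr7:25457130-25457329: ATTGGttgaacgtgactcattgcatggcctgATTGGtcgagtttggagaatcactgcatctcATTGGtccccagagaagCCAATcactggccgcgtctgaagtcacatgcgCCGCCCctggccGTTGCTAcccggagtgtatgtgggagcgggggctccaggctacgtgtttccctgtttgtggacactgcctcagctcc

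The next 4 windows belong to promoters whose genes rose (Sycp1, Arsb) or fell (Egr4, Myb) in Rybp-/- ESCs. They hold 67.5% to 73.5% G+C and 19 to 23 CpG dinucleotides in 200 bases, and 1 GC box among them.

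Sycp1, chr3:102739667-102739866: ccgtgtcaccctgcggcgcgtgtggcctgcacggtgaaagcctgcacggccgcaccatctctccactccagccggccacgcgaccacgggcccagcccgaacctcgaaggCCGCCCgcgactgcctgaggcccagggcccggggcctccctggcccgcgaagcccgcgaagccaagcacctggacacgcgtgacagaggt

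Arsb, chr13:94541949-94542148: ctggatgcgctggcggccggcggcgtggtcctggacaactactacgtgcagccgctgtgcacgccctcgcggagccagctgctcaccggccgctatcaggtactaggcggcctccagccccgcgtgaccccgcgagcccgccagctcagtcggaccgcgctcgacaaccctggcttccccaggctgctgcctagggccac

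Egr4, chr6:85463139-85463338: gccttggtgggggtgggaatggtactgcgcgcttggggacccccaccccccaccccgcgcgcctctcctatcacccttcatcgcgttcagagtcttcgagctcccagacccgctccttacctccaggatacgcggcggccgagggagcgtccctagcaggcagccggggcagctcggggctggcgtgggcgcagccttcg

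Myb, chr10:20879589-20879788: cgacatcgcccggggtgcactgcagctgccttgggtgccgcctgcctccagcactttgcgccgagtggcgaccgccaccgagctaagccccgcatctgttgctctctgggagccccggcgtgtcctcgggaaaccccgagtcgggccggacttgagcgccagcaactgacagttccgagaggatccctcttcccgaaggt

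The peaks found only in Rybp-/- ESCs were low and narrow. Their WDR5 fold enrichment over the input background had a median of 3.71 and ran from 2.15 to 8.84, against a median of 5.60 and a maximum of 72.8 for the Rybp-/- peaks shared with Rybp+/+ ESCs. Their median width was 340 bp, against 685 bp for shared peaks. Because peak height was part of what decided whether a peak was called, these values describe the selection and were not tested. When the Rybp-/- list was cut into 10 equal groups by fold enrichment, 43.4% of the lowest group had no Rybp+/+ counterpart, 17.5% of the fifth group, 0.0773% of the ninth and 0 of the highest. From the other side, the Rybp+/+ list had 27.5% of its lowest group and 0 of its highest group without a Rybp-/- counterpart. In all, 86 of the 2290 peaks (3.76%) had a −log10 q under 2, which is a q above the false discovery rate of 0.01 given in the study's methods.

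**Figure D1:**
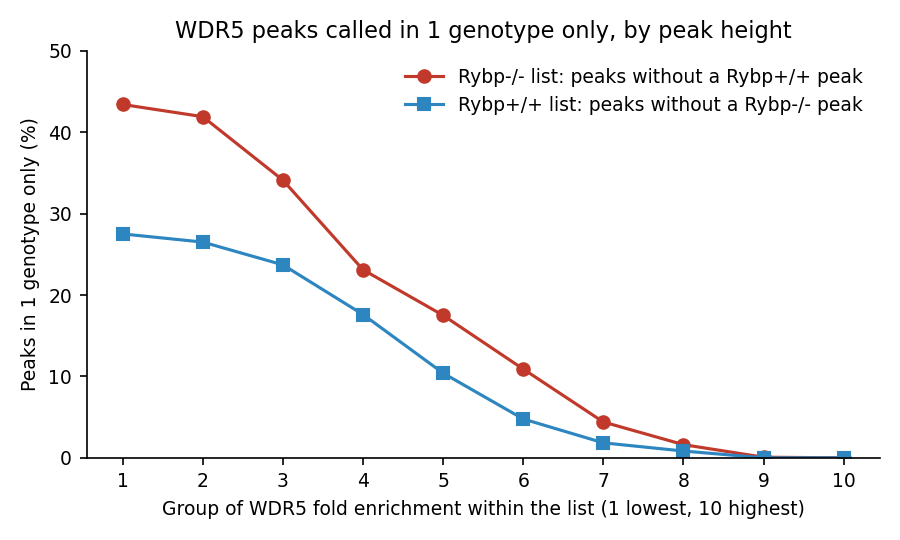
Share of WDR5 peaks called in 1 genotype only (y axis, %) in 10 equal groups of WDR5 fold enrichment within each list (x axis, 1 lowest to 10 highest). The share falls from 43.4% to 0 in the Rybp-/- list and from 27.5% to 0 in the Rybp+/+ list, and the Rybp-/- line lies at or above the Rybp+/+ line in every group.

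Some of the peaks stood beside a Rybp+/+ peak rather than away from one. The gap to the nearest Rybp+/+ WDR5 peak was under 1 kb at 343 peaks (15.0%), with a median over all peaks of 20982 bp. The smallest gaps were 1 bp, at chr5:74463957-74464388 beside Usp46 (fold enrichment 5.12) and at chr2:92855264-92855547 near Prdm11 (3.47). On the other side of the rule, the Rybp-/- peak at chr8:28089308-28090038 near Zfp703 (fold enrichment 2.71) was left out for 1 shared bp and the peak at Plekhg2 (2.71) for 2 shared bp. On the X chromosome 48 of 191 Rybp-/- peaks (25.1%, 95% Wilson interval 19.5% to 31.7%) were found only in Rybp-/- ESCs, against 14.1% to 19.9% on the autosomes. The X chromosome also had a high share of Rybp+/+ peaks without a counterpart, at 21.5% (16.2% to 28.0%).

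The tallest of these peaks were at sites of different kinds. Fold enrichments of the marks come from lists called separately in each genotype, so the values of Rybp-/- and Rybp+/+ stand side by side with no direction read from a single site. The peak chr12:3791809-3792183 (fold enrichment 8.84) lay 12261 bp, on a side not determined, from the nearest annotated start of Dtnb, which encodes the cytoskeletal protein dystrobrevin beta. H3K4me3 there was low in both genotypes (fold enrichment 3.89 in Rybp-/- and 3.68 in Rybp+/+) and there was no H3K27ac or RING1B peak. At chr13:36670289-36670722 (8.26), H3K4me3 was 19.0 in Rybp-/- and 16.7 in Rybp+/+, and an H3K27ac peak of 2.77 was listed only in Rybp-/-. The peak chr2:172715261-172715679 (7.83), in an intron, 49914 bp from the start of Bmp7, a bone morphogenetic protein gene, lay over an H3K27ac peak of 5.26 listed only in Rybp-/-, with no H3K4me3 in either genotype. At the start of Mfsd1, which encodes a lysosomal transporter, the peak chr3:67386522-67387084 (8.11) lay over H3K4me3 of 47.8 in Rybp-/- and 19.7 in Rybp+/+ and over H3K27ac of 6.90 and 2.91. Mfsd1 levels in CPM (read counts scaled to library size) were 90.1 and 85.9 in Rybp+/+ and 126 and 125 in Rybp-/-. That is a rise of 0.51 ± 0.04 on the log2 scale (SE, edgeR adjusted p = 1.0e-12), with no overlap between the groups. The 4 other genes with 1 of the 10 tallest peaks over the TSS had values at or below 0.10, or none. Serinc5 (peak 7.77, H3K4me3 of 33.9 and 28.1, H3K27ac of 12.4 and 8.74) was at 25.5 and 24.0 CPM in Rybp+/+ and 18.1 and 19.7 in Rybp-/-, and fell by 0.39 on the log2 scale (adjusted p = 1.7e-05). Mtx3 (7.60) was at 0.10 (adjusted p = 0.50), and 1110051M20Rik (7.30) at -0.26 (adjusted p = 0.021), or -0.22 (0.12 and 0.14) without Rybp+/+ replicate 1 or Rybp-/- replicate 2. Meig1 was too low to be tested.

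Most of the peaks found only in Rybp-/- ESCs lay in chromatin that already carried H3K4me3. H3K4me3 overlapped 2078 of them in Rybp-/- (90.7%, 89.5% to 91.9%) and 2079 in Rybp+/+ (90.8%). It was present in both genotypes at 2051, only in Rybp-/- at 27, only in Rybp+/+ at 28, and in neither at 184. Few WDR5 peaks were therefore accompanied by an H3K4me3 call of the same genotype alone. The tallest of the 27, chr3:153338018-153338413 in an intron 49613 bp from the start of the sialyltransferase gene St6galnac3 (WDR5 fold enrichment 7.23), had H3K4me3 of 3.90, and the next, at the start of Lrrc23 (5.98), of 4.42, which are low values for this mark. Against the 97.8% of shared WDR5 peaks with H3K4me3 the difference was -7.06 points (95% Newcombe interval -8.34 to -5.90). Shared peaks are taller, so the difference was also taken within the groups of equal fold enrichment. Weighted by the number of Rybp-/--only peaks it was -7.35 points, and it was negative in 8 of the 8 groups with at least 20 of these peaks. Shared peaks also lie nearer to transcription start sites (TSSs), and in a split by location that was added after these values were seen, the difference was -1.54 points (-2.36 to -0.940) within 2.5 kb of a TSS and -8.55 (-12.9 to -4.30) farther away.

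H3K27ac separated these peaks from the shared ones more than H3K4me3 did. It overlapped 1416 of 2290 (61.8%, 59.8% to 63.8%) in Rybp-/- ESCs, against 87.1% of shared peaks, a difference of -25.2 points (-27.3 to -23.2; -19.4 within groups of equal fold enrichment). Near a TSS it was -24.1 points (-26.5 to -21.7), and away from one -13.4 (-18.3 to -8.53). Within the lowest group of fold enrichment the shares were 57.8% and 77.4%, and within the sixth 72.3% and 88.3%. WDR5 peaks found only in Rybp+/+ ESCs had H3K27ac of Rybp-/- at 62.0%, a difference of -0.130 points whose interval was -3.38 to 3.14. With H3K27ac of Rybp+/+ the shares were 53.1% and 59.5%, a difference of -6.38 points (-9.68 to -3.05). H3K27ac was listed in both genotypes at 1186 of the Rybp-/--only WDR5 peaks, only in Rybp-/- at 230, only in Rybp+/+ at 31 and in neither at 843. The share with H3K27ac only in Rybp-/-, 10.0% (8.88% to 11.3%), was 6.24 points above that of shared WDR5 peaks (5.02 to 7.59) and 4.21 points above that of WDR5 peaks found only in Rybp+/+ (2.40 to 5.93). Away from TSSs the difference from shared peaks was 2.88 points (0.160 to 5.80). As background, 29.3% of all 62669 H3K27ac peaks of Rybp-/- and 28.7% of the 57642 of Rybp+/+ had no counterpart in the other genotype. The labels list 1 input library per genotype for these antibodies, so WDR5 and histone peaks of a genotype may share their control, and its part in these overlaps was not tested.

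**Figure D2:**
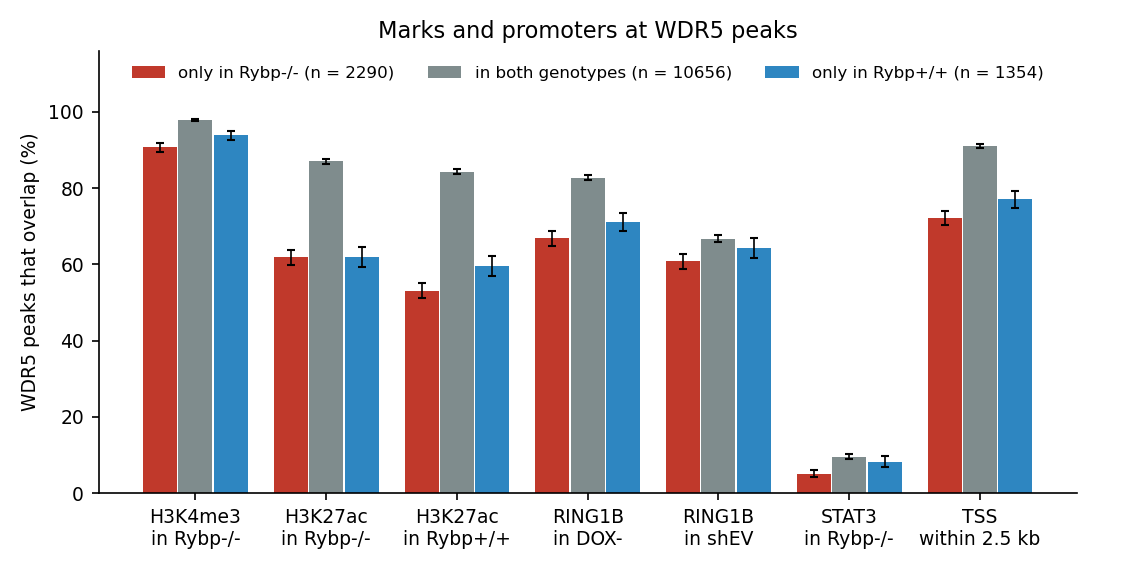
Share of WDR5 peaks that overlap each of the peak lists named on the x axis or lie within 2.5 kb of a transcription start site (TSS; y axis, %), for peaks only in Rybp-/-, in both genotypes and only in Rybp+/+; bars are shares and error bars 95% Wilson intervals, which cover counting error only. Peaks of 1 genotype stand below shared peaks for each of these lists, most for H3K27ac in Rybp+/+ (53.1% against 84.3%).

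RING1B was known only from other cells, and it overlapped 1530 of the peaks (66.8%, 64.9% to 68.7%) in the list of uninduced Tet.Rybp.Stat3 cells, against 82.7% of shared WDR5 peaks. The difference was -15.9 points (-18.0 to -13.8; -18.8 within groups of equal fold enrichment). It was smaller within each location, at 75.3% against 86.0% near a TSS (-10.7 points, -12.9 to -8.56) and 44.9% against 49.1% away from one (-4.19 points), where the interval of -9.15 to 0.809 included 0. The RING1B list of shEV cells gave 60.8% and 66.7% over all peaks, with intervals that included 0 both near a TSS (-0.787 points, -3.25 to 1.60) and away from one (-2.60, -7.52 to 2.37), and that of DOX-treated cells 54.3% and 60.9%. STAT3, the transcription factor downstream of LIF, overlapped 118 of the peaks in Rybp-/- ESCs (5.15%) against 9.61% of shared peaks, a difference of -4.46 points (-5.47 to -3.33).

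When the marks were read together, 1336 of the 2290 peaks (58.3%) carried H3K4me3 and H3K27ac in Rybp-/- ESCs. Another 652 (28.5%, 26.7% to 30.4%) carried H3K4me3 and RING1B without H3K27ac, the bivalent-like combination, against 10.4% of shared WDR5 peaks. This difference was 18.1 points (16.2 to 20.1) and 11.7 points within groups of equal fold enrichment, higher in each of the 8 groups compared. Away from TSSs it was 8.42 points (4.54 to 12.4), and near them 20.7 (18.5 to 23.1). WDR5 peaks found only in Rybp+/+ ESCs had the combination still more often, at 32.6%, with a difference of -4.17 points (-7.29 to -1.09). H3K4me3 stood alone at 90 peaks (3.93%). Of the 212 peaks without H3K4me3, 80 carried H3K27ac and 123 (5.37% of all, 4.52% to 6.37%) carried none of the 3 marks, against 1.38% of shared peaks with none.

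Where a mark was called in both genotypes, its height was compared by its percentile within its own list, because fold enrichments of separately called lists are on different scales. The lists also differ in length (62669 and 57642 peaks for H3K27ac, 38013 and 39050 for H3K4me3), which by itself moves percentiles, so neither a share of 50% nor a difference of 0 marks no change, and the groups of peaks are read only against each other. H3K4me3 had a higher percentile in Rybp-/- than in Rybp+/+ at 1226 of 2051 Rybp-/--only WDR5 peaks (59.8%, 57.6% to 61.9%). The same was so at 45.8% of shared WDR5 peaks, at 37.4% of WDR5 peaks found only in Rybp+/+ and at 44.2% of all H3K4me3 peaks called in both genotypes. For H3K27ac the shares were 65.8% (63.0% to 68.4%, n = 1186), 54.7%, 45.4% and 46.2%. The intervals of Rybp-/--only and shared peaks did not overlap for either mark. The median difference in percentile points was 1.86 at Rybp-/--only and -0.724 at shared WDR5 peaks for H3K4me3, and 2.06 and 0.360 for H3K27ac. Away from promoters 65.2% of 282 Rybp-/--only peaks had the higher H3K27ac percentile in Rybp-/-, against 65.9% of 904 within 2.5 kb of a TSS. For H3K4me3 these shares were 56.9% of 441 (52.3% to 61.5%) and 60.6% of 1610 (58.1% to 62.9%).

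**Figure D3:**
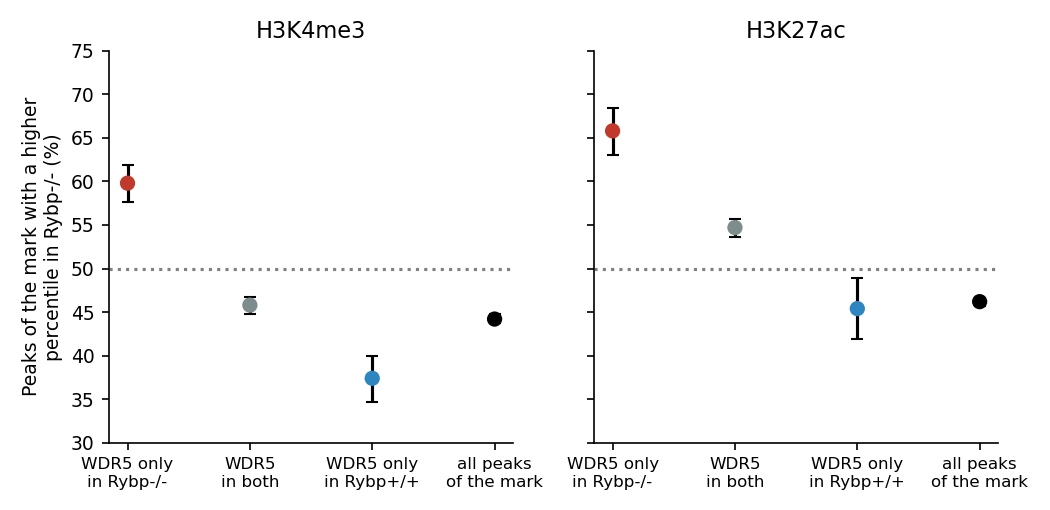
Share of peaks at which H3K4me3 (left) or H3K27ac (right), called in both genotypes, had the higher percentile in Rybp-/- (y axis, %, drawn from 30 to 75), for WDR5 peaks of each kind and for all peaks of the mark; points are shares and bars 95% Wilson intervals. WDR5 peaks only in Rybp-/- lie highest (59.8% and 65.8%) and those only in Rybp+/+ lie lowest for H3K4me3 (37.4%).

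These peaks were less tied to promoters than shared ones. A TSS lay within 2.5 kb of 1651 (72.1%, 70.2% to 73.9%), against 91.1% of shared peaks, and inside 960 (41.9%) against 77.8%. Of the peaks found only in Rybp+/+, 77.1% had a TSS within 2.5 kb and 34.1% had one inside. Whether a TSS falls inside also depends on width, which was 340 bp at the median for Rybp-/--only and 685 bp for shared peaks. More than 10 kb from any TSS were 357 (15.6%), against 4.63% of shared peaks. The summit fell in an intron at 646 peaks, in a UTR at 509, in coding sequence at 375, in another exon at 81 and between genes at 679. Within 2.5 kb of a TSS 97.9% carried H3K4me3 and 75.3% RING1B, while at the 639 peaks farther away the shares were 72.1% and 44.9%. H3K27ac differed less, at 64.9% near a TSS and 53.8% away from one.

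The letters under the summits followed the same division. Windows of 200 bases had a median G+C content of 64.5%, against 68.0% at shared peaks, 65.5% at peaks found only in Rybp+/+ and 59.0% at 22380 protein-coding TSSs. Windows rich in CpG (over 50% G+C and an observed to expected CpG ratio over 0.6) made up 60.8% (58.8% to 62.8%), 84.6%, 65.1% and 47.9%. Among the Rybp-/--only peaks the share was 77.8% with RING1B, 26.6% without RING1B and 5.19% without H3K4me3. The GC box GGGCGG, bound by SP and KLF factors, was in 44.8% of windows, against 62.3% at shared peaks (-17.5 points, -19.8 to -15.3), 44.9% at peaks found only in Rybp+/+ and 39.6% at TSSs. The ETS letters CCGGAAG were in 6.42% against 13.4% at shared peaks and 9.08% at TSSs. The E-box CACGTG, bound by MYC and USF factors, was in 5.90% and 6.61%, with an interval of the difference from -1.73 to 0.425 points. In all 12 motifs were compared, and the remaining ones differed from shared peaks by less than 3 points.

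CCAAT and the RFX-type letters were added after windows had been read, so their shares are descriptions. CCAAT, the box bound by NF-Y, was in 23.1% of all Rybp-/--only windows and in 50.5% (43.8% to 57.1%) of the 212 without H3K4me3, against 20.4% of those with it. Shared WDR5 peaks had it more often than Rybp-/--only ones, in 32.9% of all windows, 32.3% of those with H3K4me3 and 56.8% of those without, and TSSs had it in 26.8%. GTTGCNA was in 19.3% of the Rybp-/--only windows without H3K4me3, in 6.93% of those with it, in 15.8% of shared windows without it and in 6.64% of TSS windows. The windows at Dtnb and Bmp7 printed above hold 2 CCAAT boxes each, the second of them with no H3K4me3 in either genotype.

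For the genes, the RNA libraries held 75.5 to 81.0 M counted reads each (Rybp+/+ and Rybp-/-), 39.0 to 52.3 M (shRybp and its shEV) and 19.7 to 21.5 M (shWdr5 and its shEV). Rybp was at 110.4 and 110.2 CPM in Rybp+/+ and at 24.8 and 25.0 in Rybp-/-, and fell by 2.15 on the log2 scale. Wdr5 itself was at 245 and 253 CPM against 225 and 226 (log2 fold change -0.14, edgeR adjusted p = 5.0e-04). The 9 ESC-like markers summed to 5939 and 6049 CPM in Rybp+/+ and 6239.5 and 6251 in Rybp-/-, with none at 0 (5 rose and 3 fell). Other marker lists were higher in Rybp-/-: fibroblast-like from 64.2 and 63.8 to 129 and 134 CPM (8 of 9 rose), primitive endoderm-like from 8.94 and 10.1 to 18.1 and 16.9 (3 of 7 rose), and 2-cell-like from 0.204 and 0.236 to 52.1 and 50.8 (5 of 5 found rose). Of all genes tested 22.8% rose and 22.7% fell. Bulk RNA cannot tell more cells of a kind from more RNA per cell, and the part of these markers in the gene results was not tested. None of the fibroblast-like or 2-cell-like markers had a Rybp-/--only WDR5 peak at its TSS, and 1 of the primitive endoderm-like markers, Sox7, did. Such a peak was at 5.07% of all genes counted and 9.12% of those tested. With lists this short, these counts are not read as a result about the markers.

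Genes whose promoter had such a peak were counted as higher a little more often than genes in general. A TSS within 2.5 kb of a Rybp-/--only WDR5 peak was found for 1909 genes, of which 639 also had a Rybp+/+ WDR5 peak there and 1270 did not. Of the 1547 tested, 430 rose (27.8%) and 324 fell (20.9%) in Rybp-/- ESCs at an edgeR adjusted p under 0.05, against 22.8% and 22.7% of all 16955 genes tested. In either direction 45.5% of all genes passed. The median log2 fold change was 0.059, against 0.002 over all genes. With a change of more than 1 on the log2 scale besides, 118 of the genes rose (7.63%) and 20 fell (1.29%), against 6.60% and 1.24% of all genes. Genes with a shared WDR5 peak and none of these showed the opposite balance, with 20.8% higher and 30.0% lower among 9512. Genes with no WDR5 peak in either list leaned further upward, with 24.7% higher and 10.6% lower among 5387, a median of 0.11 and 14.5% higher by more than 1 log2 unit, so the lean was not particular to genes with a Rybp-/--only peak. The balance of genes with a shared peak and no Rybp-/--only one changed with expression level, read in 4 equal groups of mean CPM. It ran from 9.83% higher and 5.98% lower in the lowest group, through 21.8% and 20.1% and then 21.2% and 34.9%, to 22.9% and 37.1% in the highest. Genes with a Rybp-/--only peak had 21.3% higher and 3.93% lower, 32.8% and 13.4%, 25.8% and 30.4%, and 27.9% and 40.4% in the same groups. Of the genes with a Rybp+/+-only WDR5 peak and no Rybp-/--only one, 27.1% of 881 were higher and 24.2% lower. Leaving out genes with a Rybp+/+ WDR5 peak at the same promoter gave 29.4% higher and 17.0% lower among 1004, and the matching genes with a Rybp+/+-only peak and no Rybp-/- peak gave 25.7% and 19.8% of 506.

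The chromatin state of the peak divided the genes more than its presence did. Where the peak carried H3K27ac only in Rybp-/-, 69 of 164 genes rose (42.1%) and 18 fell (11.0%), with a median of 0.34. With H3K4me3 and RING1B but no H3K27ac, 140 of 395 rose (35.4%) and 46 fell (11.6%), with a median of 0.33. Where H3K27ac was in both genotypes with the higher percentile in Rybp-/-, 23.1% of 650 rose and 25.7% fell, and with the lower percentile 21.6% of 319 rose and 28.5% fell. Without RING1B the figures were 23.0% and 26.2% of 413. The groups also differed in level. Over protein-coding genes the median in Rybp+/+ was 1.94 RPKM (CPM divided by gene length in kilobases) for all genes with such a peak, 0.754 for those with H3K27ac only in Rybp-/-, 0.231 for the bivalent-like ones and 8.10 for genes with a shared peak alone. Genes were therefore also read in the groups of mean CPM. In the second group (1.17 to 12.0 CPM), 48.8% of 82 genes with H3K27ac only in Rybp-/- rose and 40.1% of 197 bivalent-like ones, against 28.3% of all genes of that group. In the lowest group the shares were 30.8% of 39, 29.8% of 151 and 16.5%. In the third they were 40.5% of 37, 34.1% of 41 and 23.1%. Falls followed level too: of the bivalent-like genes 2.65% fell in the lowest group, 10.7% in the second and 41.5% in the third, against 3.75%, 16.7% and 33.3% of all genes, so that in the third group more of them fell (17) than rose (14). Of the 6 bivalent-like genes in the highest group 4 fell and 2 rose. Of genes with H3K27ac only in Rybp-/-, 7.32% fell in the second group and 27.0% in the third.

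**Figure D4:**
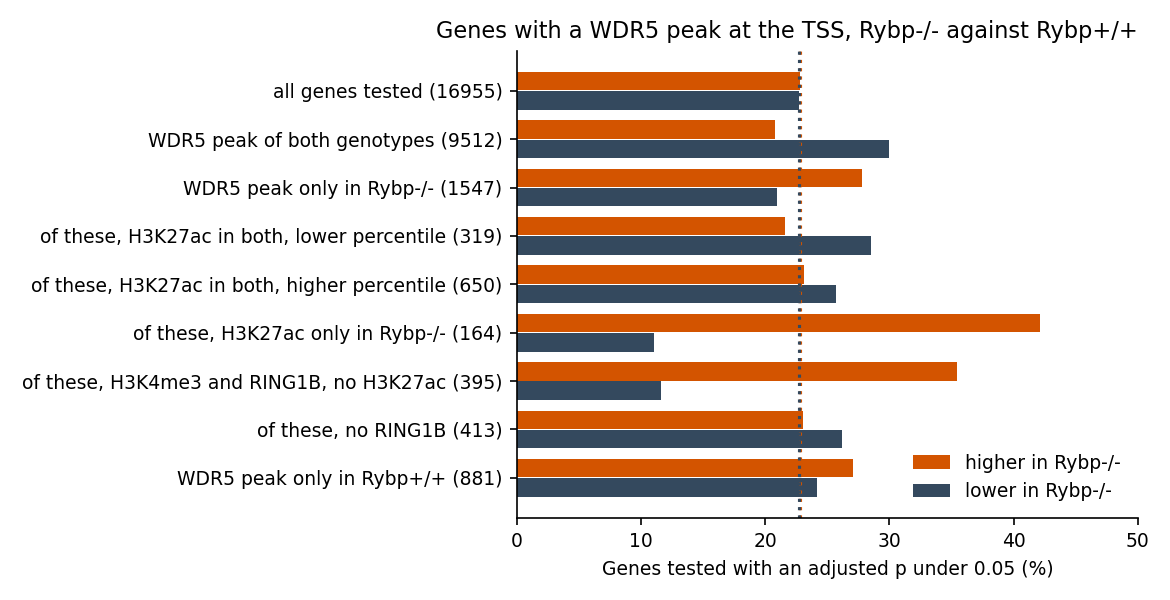
Share of genes tested that were higher (orange) or lower (blue) in Rybp-/- at an edgeR adjusted p under 0.05 (x axis, %), by the WDR5 peak within 2.5 kb of the TSS; numbers in brackets are genes tested and dotted lines the shares over all genes (22.8% and 22.7%). The bars for H3K27ac only in Rybp-/- (42.1% higher) and for H3K4me3 and RING1B without H3K27ac (35.4% higher) reach farthest above the line.

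The gene with the largest rise was Sycp1, which encodes the transverse filament of the synaptonemal complex that pairs meiotic chromosomes. It went from 0.954 and 0.708 CPM in Rybp+/+ to 6.18 and 6.69 in Rybp-/-, a log2 fold change of 2.95 ± 0.18 (SE, edgeR adjusted p = 5.3e-15). Its peak, chr3:102739388-102739943 (fold enrichment 4.07), had its summit in an intron and lay over H3K4me3 of 19.7 in Rybp-/- and 12.4 in Rybp+/+, over H3K27ac of 2.63 in Rybp-/- only and over RING1B of 40.4. Syce1, a central element protein of the same complex, had 7.61 and 6.62 CPM in Rybp+/+ and 28.9 and 29.5 in Rybp-/- (2.04 ± 0.08, adjusted p = 4.0e-20). Spata22, needed for meiotic recombination, had 0.382 and 0.422 CPM and then 2.26 and 1.94 (2.38 ± 0.29, adjusted p = 4.3e-08). Both had an H3K27ac peak in Rybp-/- only, of 3.29 and 3.86. Tex11, an X-linked meiotic gene, had 4.40 and 4.49 CPM and then 22.3 and 22.4 (2.33 ± 0.09, adjusted p = 2.2e-20), with H3K4me3 of 7.01 and 4.94 and no H3K27ac peak. In none of the 4 did the libraries of the groups overlap.

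The other large rises were in genes of varied function. Arsb, which encodes the lysosomal enzyme arylsulfatase B, had 0.445 and 0.447 CPM in Rybp+/+ and 2.00 and 1.69 in Rybp-/- (2.04 ± 0.30, adjusted p = 1.1e-06), under a WDR5 peak at chr13:94541928-94542262 with H3K4me3 of 31.0 and 21.1. Cacna1s, a muscle calcium channel gene, had 0.267 and 0.634 CPM and then 1.62 and 1.94 (1.97 ± 0.33). Sec1, a fucosyltransferase gene with close relatives beside it among which reads could be split, rose by 2.17 ± 0.17, the secreted protein gene Crispld2 by 1.87 ± 0.18, the mitochondrial carrier gene Slc25a48 by 1.81 ± 0.30 and the glycosyltransferase gene Wbscr17 by 1.66 ± 0.29 on the log2 scale. Over the 10 largest rises, 10 of 10 peaks had H3K4me3 in both genotypes and RING1B in uninduced cells. H3K27ac was in Rybp-/- only at 3 and absent at 7, and 0 genes had a Rybp+/+ WDR5 peak at the promoter. Over all 1651 Rybp-/--only peaks within 2.5 kb of a TSS, 97.9% had H3K4me3 in Rybp-/- and 75.3% had RING1B. H3K27ac of Rybp-/- was at 64.9% of them, and in Rybp-/- only at 10.2%. Of all 1909 genes with such a peak, 639 also had a Rybp+/+ one.

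The large falls included regulators of development. Of the 9 genes described 3 already had a WDR5 peak in Rybp+/+ ESCs, which is near the share over all genes with a Rybp-/--only peak (639 of 1909). Lef1, a transcription factor of the Wnt pathway, went from 32.7 and 30.2 CPM to 8.57 and 10.0 (-1.75 ± 0.08, edgeR adjusted p = 1.1e-18). Its Rybp-/--only peak, chr3:130813905-130814417, was 492 bp from a Rybp+/+ WDR5 peak and lay over RING1B of 48.7 and H3K4me3 of 34.5 in Rybp-/- and 16.3 in Rybp+/+. Egr4, a zinc finger factor gene, had 1.18 and 1.91 CPM and then 0.342 and 0.585 (-1.74 ± 0.34, adjusted p = 7.7e-05), and its peak at chr6:85463113-85463563 lay over RING1B of 74.3, the tallest at the genes with large rises or falls described here. Myb, a transcription factor of blood progenitors, had 16.1 and 14.9 CPM and then 5.57 and 5.22 (-1.52 ± 0.10, adjusted p = 1.1e-14). All 3 had no H3K27ac in either genotype. These genes were thus lower where a further WDR5 peak was called. The H3K4me3 fold enrichment was 38.7 in Rybp-/- and 34.1 in Rybp+/+ at Myb, and 32.6 and 38.3 at Egr4.

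Among the remaining falls, the ceramide synthase gene Lass1 had a log2 fold change of -1.34 ± 0.17, the imprinted gene Nnat -1.19 ± 0.09, Gchfr, a regulator of tetrahydrobiopterin synthesis, -1.11 ± 0.16, the potassium channel gene Kcnh6 -1.09 ± 0.24, Gm16862 -1.16 ± 0.22 and Mtcp1 -1.02 ± 0.30. For Mtcp1 the call rested on 1 library: without Rybp-/- replicate 1 the value was -0.77 with an adjusted p of 0.08. Of the 9 falls, Gm16862 and Mtcp1 alone had H3K27ac at the peak, in both genotypes, and 8 had RING1B in uninduced cells. Over all Rybp-/--only peaks within 2.5 kb of a TSS, 64.9% had H3K27ac of Rybp-/- and 75.3% had RING1B.

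**Figure D5:**
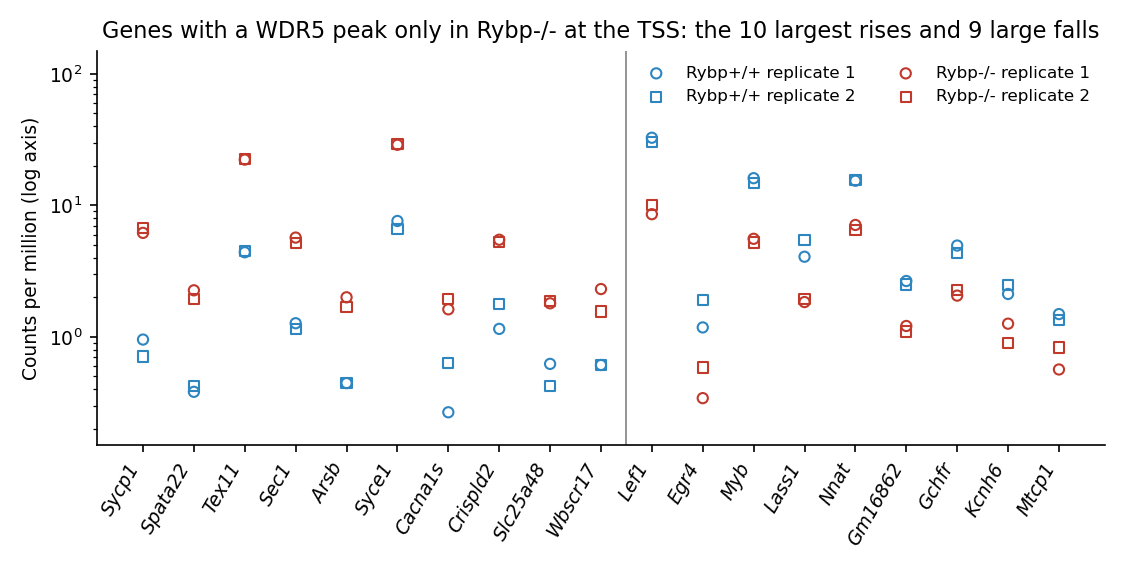
CPM (y axis, log scale) of the 10 largest rises and 9 large falls among genes with a WDR5 peak only in Rybp-/- within 2.5 kb of the TSS; each symbol is 1 library, with circles for replicate 1 and squares for replicate 2. The Rybp+/+ (blue) and Rybp-/- (red) symbols do not overlap at any of these genes, which were chosen by this difference.

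Over the 37620 genes counted, 5.07% had a Rybp-/--only peak at the TSS, and of the 16955 tested 9.12%. Read beside these shares, 5 of 26 PRC1 subunit genes and 1 of 12 PRC2 subunit genes had one. All but Pcgf1 of these also had a Rybp+/+ WDR5 peak at a TSS, with a fold enrichment of 11.2 at Kdm2b, 8.88 at Phc1, 3.53 at Bcor, 3.90 at Yaf2 and 4.85 at Phf19. Kdm2b, which brings variant PRC1 to CpG islands, had 142 and 144 CPM in Rybp+/+ and 95.5 and 93.8 in Rybp-/- (-0.60 ± 0.04, edgeR adjusted p = 6.4e-15), with an H3K27ac peak of 3.15 at the WDR5 peak in Rybp-/- only. Phc1, a canonical PRC1 subunit gene, had 654 and 662 CPM and then 488 and 481 (-0.44 ± 0.03, adjusted p = 1.8e-14). Bcor, a subunit gene of the PCGF1 form of PRC1, had 61.0 and 61.9 CPM and then 83.6 and 80.5 (0.42 ± 0.04, adjusted p = 1.1e-09). Yaf2, the paralog of Rybp, had 7.26 and 7.72 CPM and then 8.66 and 9.30 (0.26 ± 0.10, adjusted p = 0.039), with a WDR5 peak 185 bp from a Rybp+/+ peak over H3K4me3 of 47.2 in Rybp-/- and 28.2 in Rybp+/+. Pcgf1 was at -0.20 (adjusted p = 0.078) and the PRC2 accessory gene Phf19 at -0.09 (adjusted p = 0.31). The Yaf2 value passed no longer without Rybp+/+ replicate 1 (0.21, adjusted p = 0.18), Rybp-/- replicate 1 (0.31, 0.051) or Rybp-/- replicate 2 (0.21, 0.23). Over all 26 PRC1 genes 7 rose and 13 fell, where 22.8% and 22.7% of all genes tested did. Of the 20 genes of WDR5 and COMPASS, 0 had a Rybp-/--only peak and 18 had a shared one, and the 13 genes of the non-specific lethal and ATAC complexes, which also contain WDR5, had 0 and 12. With the shares of all genes given above, these counts of 0 are not read as a result about the lists.

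Among pluripotency genes, 1 of 15 core and naive factors had such a peak, Nr5a2, a nuclear receptor gene (45.8 and 44.4 CPM, then 50.5 and 51.9; 0.18 ± 0.05, adjusted p = 0.0027, or 0.16 and 0.053 without Rybp-/- replicate 2). Of 13 formative and primed genes 3 did, and all of these were lower. Dnmt3a, a de novo DNA methyltransferase gene, had 178 and 177 CPM and then 106 and 108 (-0.73 ± 0.04, adjusted p = 1.5e-17), with a Rybp+/+ WDR5 peak of 8.79 at a TSS too. The zinc finger gene Sall2 had 4.96 and 4.86 CPM and then 3.71 and 3.94 (-0.36 ± 0.14, adjusted p = 0.033), and its WDR5 peak lay over H3K27ac of 3.46 in Rybp-/- only and H3K4me3 of 40.9 in Rybp-/- and 22.6 in Rybp+/+. The Sall2 value passed no longer without any 1 of the 4 libraries (-0.35, -0.38, -0.32 and -0.41, adjusted p from 0.06 to 0.15, without replicates 1 and 2 of Rybp+/+ and 1 and 2 of Rybp-/-). Lef1 was the remaining one. Over the whole list 10 of 13 fell and 0 rose, where 22.7% and 22.8% of all genes tested did, so a fall was common in this list with or without such a peak.

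Lineage genes with such a peak were mostly at a few CPM or less. Of the 11 trophectoderm genes, Gata3 (0.394 and 0.422 CPM, then 1.04 and 1.04; 1.34 ± 0.37, adjusted p = 0.0035) and Tcfap2c (97.4 and 96.7, then 110.0 and 114; 0.20 ± 0.04, adjusted p = 4.3e-05) had one and rose, as did 8 of the 11 in all (22.8% of all genes tested rose). In the primitive streak and mesoderm list, Hand1 had 2.28 and 1.78 CPM and then 2.97 and 3.18 (0.60 ± 0.19, adjusted p = 0.0088; 0.43 and 0.099 without Rybp+/+ replicate 2, 0.55 and 0.052 without Rybp-/- replicate 2), T was at 1.09 ± 0.46 (adjusted p = 0.0501) and Gata2 at 0.11 (adjusted p = 0.42). In the neural list, Mtap2, a neuronal microtubule protein gene, rose by 0.35 ± 0.08 (adjusted p = 6.4e-04), Nkx2-2 was at -0.14 (adjusted p = 0.93), and Neurog2 had too few reads to be tested. The endoderm factor gene Sox7 was at 0.42 ± 0.26 (adjusted p = 0.20). In the germ cell list, Tex101 rose from 0.140 and 0.286 CPM to 0.946 and 1.05 (2.22 ± 0.45, adjusted p = 1.1e-04) beside Sycp1, while Sycp3 was at -0.09 (adjusted p = 0.46), and 10 of the 15 listed genes rose and 3 fell (22.8% and 22.7% of all genes tested did). The Tex101 peak, at chr7:25456965-25457362 with fold enrichment 6.70, had no H3K4me3 in either genotype and RING1B of 7.88.

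Of 39 Hox genes 7 had a Rybp-/--only WDR5 peak, each over H3K4me3 and RING1B. Hoxa10 went from 0.204 and 0.0746 CPM to 0.394 and 0.844 (2.15 ± 0.60, adjusted p = 0.0036), Hoxb9 from 0.369 and 0.485 to 1.18 and 0.767 (1.19 ± 0.39, adjusted p = 0.012) and Hoxa13 from 0.0382 and 0.199 to 0.513 and 0.247 (1.66 ± 0.69, adjusted p = 0.0483). These levels are near or below 1 CPM, and each call was lost with a library left out. Hoxa10 had an adjusted p of 0.19 without Rybp-/- replicate 2. Hoxb9 was at 1.00 (0.065) without Rybp+/+ replicate 1 and 0.84 (0.24) without Rybp-/- replicate 1. Hoxa13 was at 0.92 (0.37) without Rybp+/+ replicate 1 and 1.04 (0.49) without Rybp-/- replicate 1. Hoxc6 and Hoxd11 had adjusted p of 0.24 and 0.82, and Hoxa9 and Hoxc10 were too low to be tested. Over the whole list 8 of 17 tested genes rose and 0 fell, beside 22.8% and 22.7% of all genes tested. Single genes of other lists were Perp, a p53 target, which rose from 13.3 and 15.0 CPM to 28.1 and 28.4 (0.99 ± 0.07, adjusted p = 2.3e-13) with H3K27ac of 11.2 in Rybp-/- and 6.61 in Rybp+/+, and the ribosomal protein gene Rps3 (0.04, adjusted p = 0.19). The LIF and STAT3, cell division and 2-cell-like lists had no gene with such a peak.

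At the same promoters, the knockdown of Rybp in R1 ESCs also came with more genes higher than lower. Of 1530 genes tested, 549 were higher in shRybp (35.9%) and 333 lower (21.8%), against 26.8% and 26.0% of all genes (52.7% in either direction), with a median log2 fold change of 0.18 against 0.018. The same lean was present at genes with a Rybp+/+-only WDR5 peak and no Rybp-/--only one, of which 34.5% were higher and 24.8% lower in shRybp, and at those with a Rybp+/+-only peak and no Rybp-/- peak, with 37.6% and 19.8%. Genes with a shared peak alone had 23.9% and 34.5%. Genes with no WDR5 peak in either list had 28.3% and 11.8% of 5028, with a median of 0.20 and 19.2% higher by more than 1 log2 unit. From the lowest to the highest of 4 equal groups of mean CPM in these libraries, genes with a Rybp-/--only peak were higher in 33.4%, 46.8%, 32.9% and 23.9%, against 23.0%, 38.8%, 28.6% and 16.7% of all genes. They were lower in 1.27%, 12.1%, 27.0% and 52.5%, against 2.18%, 13.3%, 31.2% and 57.1%. With H3K27ac only in Rybp-/-, 92 of 165 were higher (55.8%) and 16 lower, and with H3K4me3 and RING1B but no H3K27ac 185 of 396 were higher (46.7%) and 31 lower. In shWdr5, 483 of 1442 genes were higher (33.5%) and 473 lower (32.8%), against 31.5% and 31.5% of all genes (63.0% in either direction), with a median of -0.017 against -0.007. With more than 1 log2 unit besides, 260 (17.0%) were higher and 16 (1.05%) lower in shRybp, against 11.4% and 1.22% of all genes, and 206 (14.3%) and 120 (8.32%) in shWdr5, against 10.9% and 7.69%. The labels list 1 set of shEV samples for both knockdowns, so the 2 comparisons share their control. Side by side, Sycp1 was at 0.74 in shRybp and 0.03 in shWdr5, Tex11 at 1.06 and 0.14, Cacna1s at 3.03 and -0.11, Arsb at 1.87 and -0.11, and Slc25a48 at 2.06 and 1.96 on the log2 scale. Of the 10 genes with the largest rises in Rybp-/-, 9 were higher in shRybp at an edgeR adjusted p under 0.05, and 2 were higher and 1 lower in shWdr5. Of the 9 falls, 8 could be tested in each knockdown: 2 were lower and 1 higher in shRybp, and 5 were lower and 2 higher in shWdr5.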

How the data were processed

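WDR5, H3K4me3, H3K27ac, RING1B and STAT3 peaks were used as the authors deposited them, in mm9, called with MACS2 on merged replicates. Each deposited peak gives a fold enrichment over background and a −log10 q, both made by the authors' peak caller. Rows of a list with the same start and end were counted once. RNA-seq tables hold read counts per gene as deposited by the authors (Trim Galore, STAR and HTSeq, per the submitters' processing notes), with a gene length; the strand setting of counting is not given in the sources used here. HTSeq rows that name no gene held 13.7% to 14.1% of reads in the knockout table, 22.1% to 23.8% in the shRybp table and 56.3% to 57.4% in the shWdr5 table, and were left out. Unmapped columns numbered 0.

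Overlap of 1 bp counted as shared. A gene was tied to a peak by an annotated TSS within 2.5 kb. Shares carry 95% Wilson intervals and differences 95% Newcombe intervals. Each RNA comparison was fitted alone over all genes with edgeR 4.0.16 in R 4.3.3 (filterByExpr, TMM, quasi-likelihood test, Benjamini-Hochberg adjusted p under 0.05), and the code was tested on simulated data. CPM use TMM-scaled library sizes, and RPKM was computed from them with the deposited length. Nothing in the labels says that the 2 replicates came from separate cultures, so p-values measure only the spread between these samples. DESeq2 1.42.0, a count minimum of 1, left-out libraries and a replicate block were alternatives. Peaks were handled with Python 3.11.15, pandas 2.3.3 and pysam 0.24.0, with sequence read from the mm9 genome.

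The regions and the gene lists were chosen with earlier results of these data known. Named regions were the 10 with the highest fold enrichment, the 5 nearest to either side of the rule, and up to 5 by fold enrichment under each mark or no mark. Named genes were the 10 largest rises and falls with a mean of at least 1 CPM, and members of the lists with a peak at the TSS. For lists, 4 genes by fold enrichment were to be named, and the fifth PRC1 gene and the remaining Hox genes were added after their values were seen. Results for 2 genes that this rule names are not reported here, so 9 of the 10 falls are described.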

Additional observations from a re-analysis of the deposited data

Results flagged for a closer look

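At 7 of the genes named with a Rybp-/--only WDR5 peak at the promoter, both replicates lay on one side of the controls in Rybp-/- ESCs and both on the other side in the Rybp knockdown. Lef1, Sall2 and Serinc5 passed the edgeR test (adjusted p under 0.05) in both comparisons, while Nnat, Pcgf1, Sox7 and Hoxc6 did not. These differences between the comparisons were not tested, and the cell line (R7.15 against R1) and the means of depletion (deletion with 4-OHT against short hairpin) differ with them and cannot be told apart. Lef1 had a log2 fold change of -1.75 in Rybp-/- and 0.67 in shRybp, where it went from 9.30 and 10.1 CPM in shEV to 16.2 and 14.7. Sall2 was at -0.36 and 0.47, with 16.5 and 15.0 CPM in shEV and 22.9 and 20.9 in shRybp, and its value in Rybp-/- did not pass the test when any 1 library was left out. Serinc5, a serine incorporator gene with the sixth tallest of these WDR5 peaks, was at -0.39 and 1.19, with 25.5 and 24.0 CPM in Rybp+/+, 18.1 and 19.7 in Rybp-/-, 7.53 and 8.05 in shEV and 17.3 and 18.4 in shRybp. Nnat was at -1.19 in Rybp-/- and 0.27 in shRybp, with 6.27 and 6.61 CPM in shEV and 7.43 and 8.14 in shRybp (edgeR adjusted p = 0.11). Pcgf1 was at -0.20 (adjusted p = 0.078) and 0.60 (adjusted p = 0.0016). Sox7 was at 0.42 (adjusted p = 0.20) and -0.58 (adjusted p = 0.0070). Hoxc6, at under 0.4 CPM in every library of both comparisons, was at -1.18 (adjusted p = 0.24) and 0.72 (adjusted p = 0.38).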

How the results depend on the processing

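The number of Rybp-/--only WDR5 peaks was 2290 as listed, 1947 at 1 kb or more from any Rybp+/+ peak and 1124 when a −log10 q of at least 5 was asked. The Rybp-/- list is also the longer one (12946 peaks against 11965). The 2290 peaks, set against 1354 found only in Rybp+/+, are therefore not read as more gain than loss. The share with H3K4me3 (90.7%) was 89.0% when the mark had to cover at least 0.5 of the peak, 88.6% for peaks with −log10 q of at least 5, 89.3% for peaks at least 1 kb from any Rybp+/+ peak and 72.1% away from TSSs. The share with H3K27ac (61.8%) was 55.5% with the coverage rule, 66.1% for peaks with −log10 q of at least 5, 55.5% when the H3K27ac peaks had to reach that q, and 53.8% away from TSSs. For RING1B (66.8%) the values were 64.1% with the coverage rule, 55.1% with the q rule on RING1B, 64.6% at 1 kb or more, 44.9% away from TSSs and 60.8% with the shEV list. Of the genes at these peaks, 754 changed in Rybp-/- (138 by more than 1 log2 unit, 466 without a Rybp+/+ peak at the TSS), 882 in shRybp (276 and 552) and 956 in shWdr5 (326 and 589); these alternatives keep fewer genes or peaks by construction. DESeq2 gave 618, 767 and 751 genes. Leaving out 1 library gave 602 to 698, 721 to 857 and 859 to 916. With the replicate number as a block (replicate block) the counts were 771, 915 and 979; deviations of same-numbered libraries correlated at 0.001, 0.032 and 0.057, so the numbers did not pair the samples. For the 38 named genes past the threshold in Rybp-/-, 240 alternatives kept the direction and the call and 26 kept only the direction, the latter at Mtcp1, Nr5a2, Sall2, Yaf2, Hand1, Hoxa10, Hoxb9, Hoxa13 and 1110051M20Rik. With DESeq2 the calls of Sall2, Yaf2, Hand1, Hoxa13 and 1110051M20Rik were lost (adjusted p 0.13, 0.15, 0.055, 0.15 and 0.09). The pooled peak lists give no replicate error, and how many of the lowest peaks would be called again was not tested.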
